A study of Mus musculus with 43 samples.

Results

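Polycomb proteins and the enzymes that add or remove methyl groups on histone lysines were followed as a set of 44 genes among the 46983 genes of a deposited expression table of mouse germ cell cultures. The genes were taken by symbol: 8 encode subunits of Polycomb repressive complex 2 (PRC2) and proteins that associate with it, 14 encode proteins of Polycomb repressive complex 1 (PRC1), 10 encode histone demethylases, 5 encode methyltransferases of lysine 9 of histone H3 (H3K9), and 7 encode methyltransferases of H3K4 or H3K79. All 44 were found, and all 44 passed the filter on low values that left 16268 genes for testing. Expression was measured by sequencing of polyadenylated RNA.

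The cultures were derived from THY1+ testis cells of wild-type (WT) or Stra8-knockout (Stra8-KO, here KO) mice and were grown in serum-free medium with GDNF, GFRA1 and FGF2. All of them were grown on STO cells, a mouse fibroblast line used as feeders, so every library can hold feeder RNA. Each genotype was untreated (0 h), or received 0.01% DMSO or all-trans retinoic acid (RA), with RNA taken at 4, 8 or 24 h, which gives 14 groups of 3 libraries. The RA dose is labelled as 0.01 M, and whether that was the concentration in the culture cannot be checked from the values. No strain, age or deleted exon of Stra8 could be read from the labels. The 3 libraries of a group came from 3 cultures named WT17, WT23 and WT25 or KO12, KO20 and KO21, and these names are used as names of lines, since all of them occur under each condition of their genotype. The labels do not say whether each line came from its own mouse. The p-values measure the spread between libraries of a group, pooled over the 14 groups. Unless the line is a block, libraries of a line in different groups are taken as independent, although each genotype has only 3 lines.

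PRC2 places methyl groups on H3K27 through the catalytic subunits EZH1 or EZH2, held together by EED and SUZ12, and accessory proteins such as JARID2 and MTF2 help bring it to chromatin. PRC1 places ubiquitin on histone H2A through RNF2 or its relative RING1, with a PCGF partner and, in its canonical forms, a CBX protein that binds methylated H3K27. KDM6A and KDM6B remove H3K27 methylation, and in the male germline Polycomb complexes are known to hold differentiation and meiotic genes in check, among them Stra8 itself. RA is the signal that starts differentiation of spermatogonia, and STRA8 is a transcriptional regulator that RA induces and that meiotic entry needs.

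The proximal promoters of 3 members with distinct responses to RA are shown, each as the 150 bases before a start of transcription given by RefSeq on GRCm38.p6. For Scmh1 and Suv39h2 the first listed start whose window held the marked match was taken. Rnf2 rose with RA in both genotypes (chr1:151500992-151501141, minus strand). Scmh1 fell with RA at 24 h in WT, with a difference between the genotypes (chr4:120405198-120405347, plus strand). Suv39h2 rose at 24 h in WT, also with a difference between the genotypes (chr2:3474987-3475136, minus strand). Capitals mark a match to CNCCTCAG, a motif described for STRA8, in Scmh1, and a match to TGACGTCA, the cyclic AMP response element, in Suv39h2. The gene model of Scmh1 used for the expression values starts at 120405281, within the stretch, and the match lies inside that model.
Rnf2: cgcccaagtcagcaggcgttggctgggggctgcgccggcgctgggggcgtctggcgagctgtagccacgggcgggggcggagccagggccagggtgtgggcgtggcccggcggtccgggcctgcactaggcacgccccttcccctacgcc
Scmh1: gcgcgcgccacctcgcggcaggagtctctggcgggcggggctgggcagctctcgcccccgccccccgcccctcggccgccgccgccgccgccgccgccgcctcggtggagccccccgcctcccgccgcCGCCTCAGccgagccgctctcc
Suv39h2: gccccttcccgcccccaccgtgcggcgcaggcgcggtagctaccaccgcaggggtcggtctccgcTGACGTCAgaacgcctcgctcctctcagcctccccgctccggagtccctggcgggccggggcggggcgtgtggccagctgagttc
Both strands of the windows from 250 bases before to 50 bases after the start were searched, and 37 of the 44 members had a window. CNCCTCAG was found in Scmh1, Suv39h1 and Cbx8, 3 of those 37 genes. It was found in 9.12% of all genes with a RefSeq window of this length, and in 7.94% of all such windows. TGACGTCA was found in Suv39h2 and Cbx8, in 2.03% of all these genes and in 1.79% of all windows. An E2F site, TTTCGCGC or TTTGGCGC, was found in Ezh2, in 0.929% of all these genes and in 0.813% of all windows. Direct repeats of the retinoic acid receptor half-sites, spelled AGGTCA with the variants GGGTCA and also AGTTCA as well as the variant GGTTCA, spaced by 1, 2 or 5 bases, were found in none of the 37 and in 0.222%, 0.268% and 0.0974% of all windows. Matches of different motifs did not overlap in these windows, and a match is a description of the sequence.

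Stra8 was at 7.63 to 8.91 on the deposited log2 scale in the untreated WT lines and at 6.31 to 6.49 in the untreated KO lines. After 24 h of RA it was at 14.10 to 14.73 in WT and at 9.47 to 9.79 in KO, so reads were assigned to the gene in KO and the genotypes did not overlap. Kit, a receptor of differentiating spermatogonia, was at 8.95 to 9.44 in WT with DMSO at 24 h and at 12.78 to 13.02 with RA, and in KO at 8.92 to 9.55 and 12.81 to 12.98. Gfra1, the GDNF receptor of undifferentiated spermatogonia, was at 13.04 to 13.15 and 12.26 to 12.39 in WT and at 13.12 to 13.28 and 13.48 to 13.64 in KO. In all, 3 libraries labelled DMSO at 4 h went against their labels or stood apart: the library labelled WT23 had Stra8 at 11.59 and Kit at 11.13, where that labelled WT17 had 7.93 and 9.11. Over all genes the WT23 library was still nearest DMSO libraries, WT23 at 8 h and WT17 at 4 h. Over the members it differed from these by 0.0966 and 0.0816 on average in absolute log2 units. The library labelled KO20 had Kit at 12.96, and over the 44 members it differed from the RA 24 h library of the same line by 0.0279 on average in absolute log2 units. The library labelled WT25 was far from all others, with a mean absolute difference of 0.455 over the members to its nearest neighbour. These 3 are doubtful and were left out, so 39 libraries carry the results, and counts with all 42 are given beside them.

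After 24 h of RA most members that changed in WT were lower. In WT, 5 of the 44 members rose and 23 fell against DMSO at 24 h (limma, Benjamini-Hochberg adjusted p below 0.05), where 37.2% of all genes tested were called, 17.9% higher and 19.3% lower. The median change of the members was -0.15 on the log2 scale, and that of all genes tested was 0. In KO, 2 rose and 7 fell, where 18.6% of all genes were called, 10.5% higher and 8.1% lower, and the members' median was -0.06 beside -0.01 for all genes. Rnf2 was the member that rose in both genotypes, 6 members fell in both (Bmi1, Kdm5b, Kdm6a, Kmt2a, Mtf2 and Setd1a), and Kmt2c fell in WT and rose in KO. No share of all genes is given for calls in both genotypes. The members were chosen with earlier results of these data known, so their counts beside the shares of all genes are a description. In whole cultures, fewer cells of a kind and less RNA per cell cannot be told apart.

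The difference between the genotypes was tested itself, as the RA effect in KO minus that in WT at 24 h. It passed for 15 members, 12 with a higher and 3 with a lower value in KO, where 19.8% of all genes were called, 11.8% higher and 7.99% lower. With all 42 libraries 14 members were called in WT, 4 in KO and 1, Scmh1, for the difference between the genotypes, where 24.2%, 8.84% and 8.45% of all genes were called. Quantile normalization left 9 higher and 14 lower in WT, and 12 higher and 6 lower for the difference between genotypes (37.1% and 21.9% of all genes called). Centring each library on its median left 1 higher and 11 lower in KO (21% of all genes called). A fit with the line as a block called 14 members in KO, 4 higher and 10 lower (29.8% of all genes called). Without line KO20 the count in KO was 5, and without line KO21 the count for the difference between genotypes was 6. For fits with a line left out, here and below, no share of all genes is given. A changed count there cannot be read as particular to the members. Over the same contrast the summed level of 18 markers of undifferentiated spermatogonia was 16.68 to 16.76 with DMSO and 16.30 to 16.40 with RA in WT, and 16.70 to 16.74 and 16.71 to 16.74 in KO. What this marker shift stands for, and its part in the members' changes, was not tested.

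Libraries pair by line, and the fit with the line as a block kept each of these calls at 24 h and added others. In KO it added Cbx6 (-0.21, adjusted p = 0.015), Kdm6b (0.19, adjusted p = 0.004), Kdm2b (0.26, adjusted p = 0.00087), Setdb1 (-0.08, adjusted p = 0.026) and Suv39h1 (-0.11, adjusted p = 0.013). In WT it added Phf19 (-0.26, adjusted p = 0.0041), Cbx2 (-0.18, adjusted p = 0.015), Phc3 (0.18, adjusted p = 0.015), Kdm2b (-0.18, adjusted p = 0.012) and Ehmt1 (0.11, adjusted p = 0.014). For the difference between genotypes it added Kdm2b (0.44, adjusted p = 0.00013), Cbx8 (0.27, adjusted p = 0.0059), Pcgf5 (-0.24, adjusted p = 0.0098), Cbx6 (-0.31, adjusted p = 0.011), Phc3 (-0.28, adjusted p = 0.012) and Suz12 (-0.17, adjusted p = 0.026). Where these members are said below not to pass, that is without the block.

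**Figure D1:**
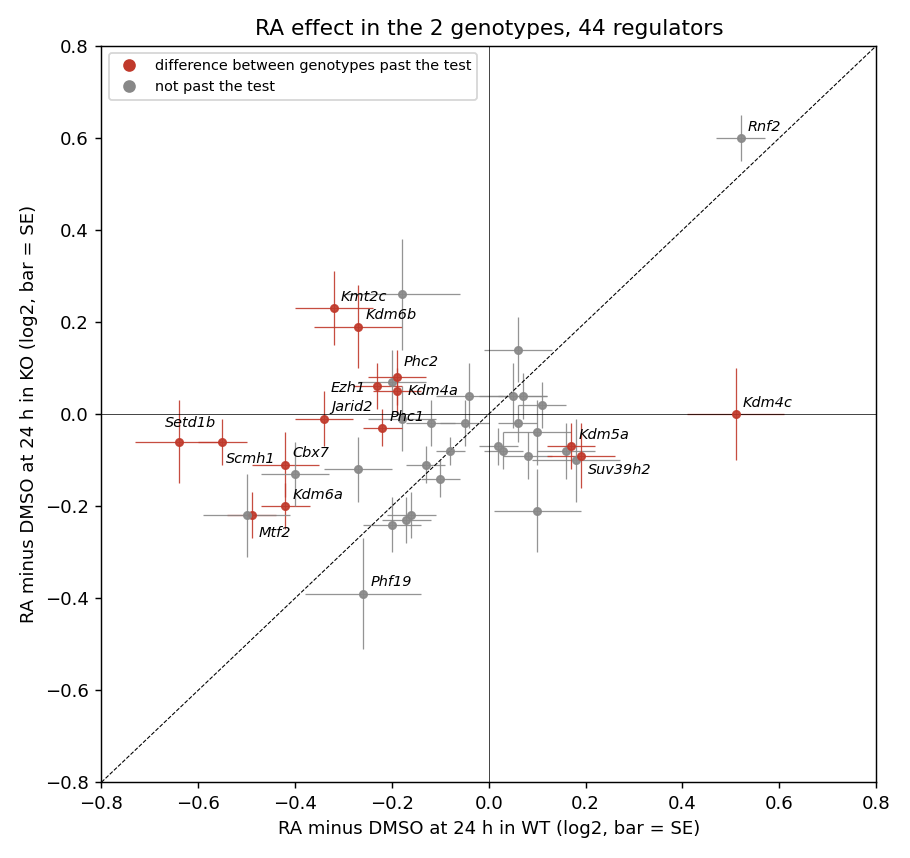
RA minus DMSO at 24 h on the log2 scale in WT (horizontal axis) and KO (vertical axis) for the 44 members, with standard errors as bars and the line of equal change dashed. Rnf2 lies high in both at 0.52 and 0.60, whereas Setd1b, Scmh1 and Kdm4c lie far out along the WT axis and near 0 in KO. Red marks the 15 members whose difference between genotypes passed the test.

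Among PRC2 genes, 3 of 8 fell in WT and none rose, while the core genes Ezh2, Eed and Suz12 did not pass. Counts by family, here and below, stand beside 17.9% of all genes higher and 19.3% lower in WT. In KO these shares were 10.5% and 8.1%. Ezh1, the catalytic subunit typical of non-dividing cells, was at 11.77, 11.92 and 11.90 with DMSO and at 11.59, 11.60 and 11.69 with RA in lines WT17, WT23 and WT25. All 3 RA libraries lay below all 3 DMSO libraries, and the change was -0.23 ± 0.05 (SE; adjusted p = 0.00091). In KO the same gene was at 11.76, 12 and 11.87 with DMSO and at 11.83, 12.03 and 11.95 with RA, which overlap (0.06 ± 0.05, adjusted p = 0.50). The RA effect on Ezh1 differed between the genotypes by 0.29 ± 0.08 (adjusted p = 0.0063).

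Ezh2, the catalytic subunit of dividing cells, did not pass in either genotype. It was at 11.22, 11 and 11.26 with DMSO and 11.34, 11.16 and 11.28 with RA in WT, and at 11.30, 11.20 and 11.23 and 11.28, 11.18 and 11.17 in KO. The groups overlapped in both, and the changes were 0.10 ± 0.07 (adjusted p = 0.27) and -0.04 ± 0.07 (adjusted p = 0.77). Eed and Suz12 likewise did not pass at 24 h, with changes of 0.03 ± 0.04 and 0.08 ± 0.05 in WT and of -0.08 ± 0.04 and -0.09 ± 0.05 in KO. Under quantile normalization Suz12 passed in WT, with a change of 0.14 (adjusted p = 0.017).

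Of the accessory genes, Mtf2 and Jarid2 fell in WT. Mtf2, which reads H3K36 methylation and helps PRC2 bind CpG islands, was at 12.78, 12.80 and 12.93 with DMSO and at 12.30, 12.36 and 12.37 with RA in WT. In KO it was at 12.81, 12.92 and 12.84 and at 12.61, 12.65 and 12.65. The groups were apart in both genotypes. Mtf2 fell by 0.49 in WT (SE 0.05, adjusted p = 4.9e-09) and by 0.22 in KO (SE 0.05, adjusted p = 0.0017). The difference between the genotypes was 0.27 ± 0.07 (adjusted p = 0.0074). Exons of Mtf2 share 6.93% of their length with Tmed5 on the opposite strand, which had a mean signal of 919 beside 7090 for Mtf2.

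Jarid2, a DNA-binding cofactor of PRC2, was at 12.76, 12.84 and 12.90 with DMSO and at 12.47, 12.44 and 12.57 with RA in WT, where the groups did not overlap. It fell by 0.34 in WT (SE 0.06, adjusted p = 7.4e-05) and had a change of -0.01 ± 0.06 in KO (adjusted p = 0.91), and the genotypes differed by 0.32 ± 0.09 (adjusted p = 0.0089). Phf19, an H3K36me-reading relative of Mtf2, was the PRC2 gene that passed in KO but not in WT, at -0.39 ± 0.12 (adjusted p = 0.016) and -0.26 ± 0.12 (adjusted p = 0.077). Its difference between the genotypes was -0.13 ± 0.16 and did not pass (adjusted p = 0.62). Phf1, another protein of that family, did not pass at 24 h in either genotype, at -0.04 and 0.04.

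**Figure D2:**
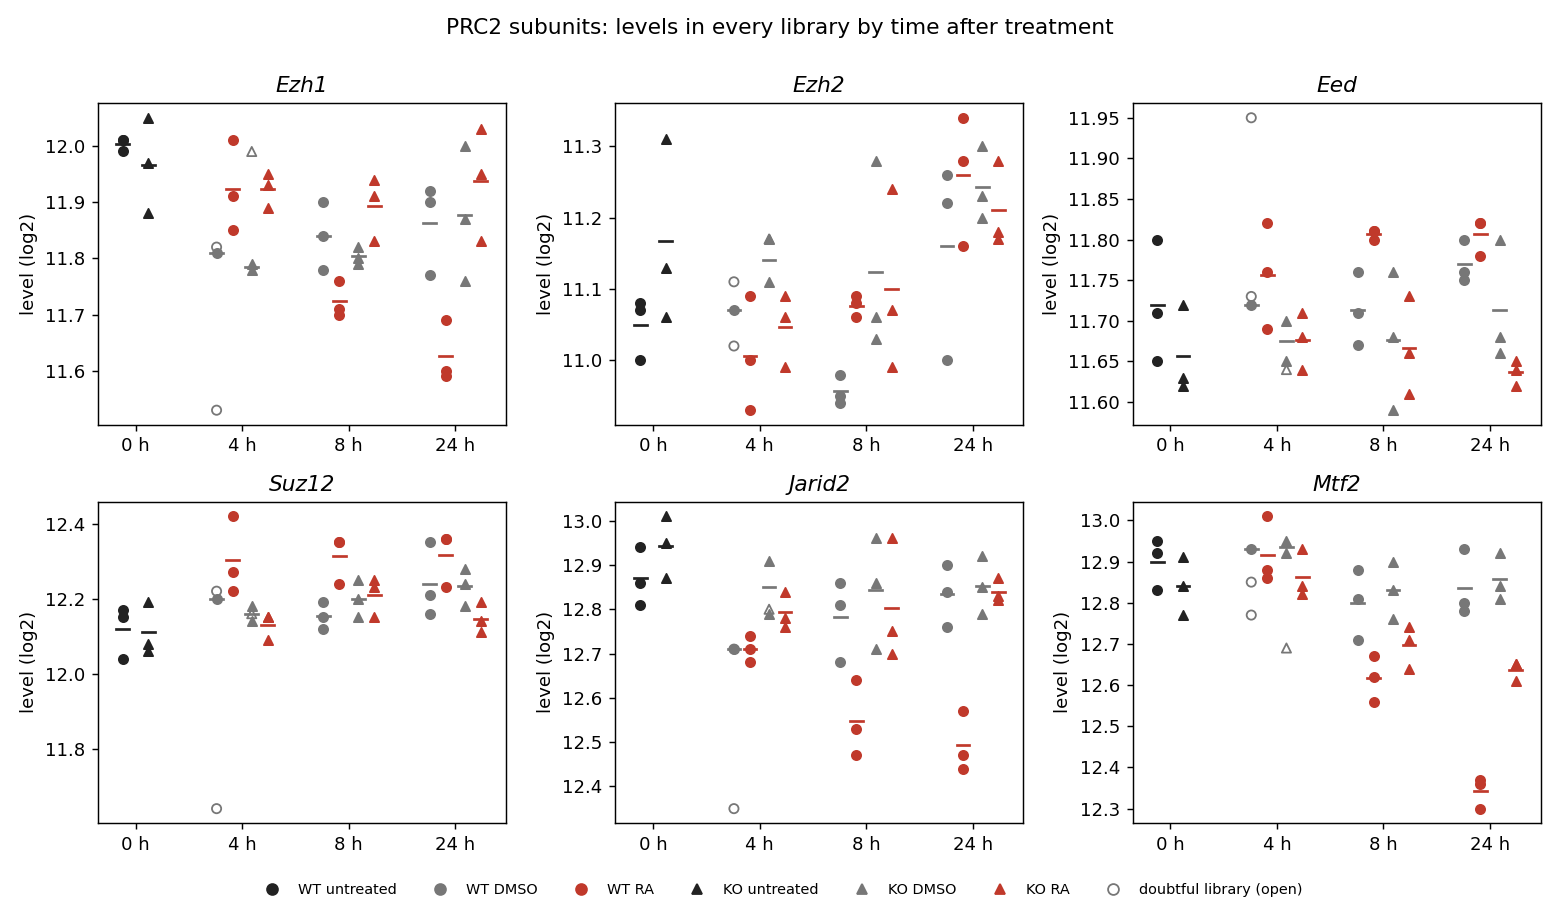
Deposited log2 level of 6 PRC2 genes in every library against hours of treatment, with circles for WT, triangles for KO, colours for untreated, DMSO and RA, bars for group means without the doubtful libraries, and open symbols for those. Jarid2 and Mtf2 drop with RA in WT at 8 and 24 h and Ezh1 at 24 h, whereas Ezh2, Eed and Suz12 in RA at 24 h stay within 0.1 of their DMSO means.

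Of the 14 PRC1 genes, 2 rose and 6 fell in WT at 24 h, and 1 rose and 1 fell in KO. Rnf2, the E3 ligase that ubiquitinates H2A (ENSMUSG00000026484.13, chr1:151458004-151500955 on GRCm38.p4), was at 11.36, 11.39 and 11.45 with DMSO and at 11.89, 11.86 and 12.01 with RA in WT. In KO it was at 11.48, 11.41 and 11.40 and at 12.05, 12.08 and 11.97. Every RA library lay above every DMSO library. Rnf2 rose 1.43-fold in WT (0.52 ± 0.05, adjusted p = 9e-09) and 1.52-fold in KO (0.60 ± 0.05, adjusted p = 5.2e-10), and the difference of 0.08 ± 0.08 did not pass (adjusted p = 0.49). It kept its call in both genotypes in every alternative fit. Exons of Rnf2 share 3.83% of their length with Trmt1l on the opposite strand, and the counting is not stated to use strand.

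Scmh1, a Sex comb on midleg relative that associates with PRC1 (ENSMUSG00000000085.16, chr4:120405281-120530186 on GRCm38.p4), was at 11.58, 11.55 and 11.54 with DMSO and at 10.98, 10.97 and 11.06 with RA in WT. In KO it was at 11.62, 11.62 and 11.69 with DMSO and at 11.53, 11.51 and 11.72 with RA. The WT groups stood well apart and the KO groups overlapped. Scmh1 fell by 0.55 in WT (SE 0.05, adjusted p = 7.6e-10), 1.47-fold, and had a change of -0.06 ± 0.05 in KO (adjusted p = 0.48). The genotypes differed by 0.49 ± 0.07 (adjusted p = 1.2e-05), a call that held in every alternative fit, all 42 libraries included.

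Cbx7, a canonical PRC1 subunit that binds H3K27me3, was at 10.55, 10.65 and 10.53 with DMSO and at 10.11, 10.17 and 10.20 with RA in WT, with no overlap. It fell by 0.42 in WT (SE 0.07, adjusted p = 7.1e-06), had a change of -0.11 ± 0.07 in KO (adjusted p = 0.24), and differed between genotypes by 0.30 ± 0.09 (adjusted p = 0.018). Cbx8, its paralog, fell by 0.20 in WT (SE 0.07, adjusted p = 0.026), although its groups overlapped, and its difference between genotypes, 0.27 ± 0.10, missed the threshold (adjusted p = 0.052). Cbx2, a chromatin-compacting CBX protein linked to male sex determination, was at 11.70, 11.85 and 11.76 with DMSO and 11.59, 11.45 and 11.73 with RA in WT, and did not pass (-0.18 ± 0.07, adjusted p = 0.052). Cbx6 did not pass in either genotype, with 0.10 ± 0.09 in WT and -0.21 ± 0.09 in KO.

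The Polyhomeotic genes Phc1 and Phc2, whose proteins let PRC1 cluster, fell in WT by 0.22 (SE 0.04, adjusted p = 6.2e-05) and by 0.19 (SE 0.06, adjusted p = 0.013). In KO they had -0.03 and 0.08, and the genotypes differed by 0.19 and 0.27 (adjusted p = 0.017 and 0.023), each lost in 6 alternative fits. The WT call of Phc2 was lost with all 42 libraries, under quantile normalization and without line WT23, and that of Phc1 held. Phc3 did not pass, with 0.18 ± 0.09 in WT and -0.10 ± 0.09 in KO. Bmi1, the PCGF partner needed for self-renewal of several stem cell kinds, fell in both genotypes, from 11.20, 11.20 and 11.30 to 11, 11.01 and 11.09 in WT and from 10.98, 11.15 and 11.10 to 10.69, 10.92 and 10.89 in KO. No RA library reached the level of a DMSO library of its genotype, and the changes were -0.20 ± 0.06 (adjusted p = 0.0068) and -0.24 ± 0.06 (adjusted p = 0.0033). Among the other PCGF genes, Pcgf5, which marks a variant PRC1, rose by 0.16 in WT (SE 0.06, adjusted p = 0.042) with overlapping groups, and lost that call in 10 alternative fits. Pcgf1, Pcgf2 and Pcgf3 lay between 0.02 and 0.06 in WT and between -0.07 and 0.14 in KO and did not pass.

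Of the 10 demethylases, 2 rose and 6 fell in WT, and 2 fell in KO. Kdm6a, the X-linked H3K27 demethylase UTX, was at 10.36, 10.15 and 10.33 with DMSO and at 9.90, 9.83 and 9.85 with RA in WT. In KO it was at 10.20, 10.35 and 10.31 and at 10.03, 10.13 and 10.10. The groups were apart in both genotypes. Kdm6a fell by 0.42 in WT (SE 0.05, adjusted p = 8.4e-08) and by 0.20 in KO (SE 0.05, adjusted p = 0.0041), with a difference of 0.22 ± 0.07 (adjusted p = 0.027). The call for that difference was lost in 9 alternative fits and that in KO in 3, while that in WT held in all.

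Kdm6b, the inducible H3K27 demethylase JMJD3, was at 12.82, 12.68 and 12.76 with DMSO and at 12.54, 12.36 and 12.56 with RA in WT, and at 12.68, 12.63 and 12.62 and at 12.80, 12.88 and 12.81 in KO. In each genotype the groups were apart, in opposite directions. Kdm6b fell by 0.27 in WT (SE 0.09, adjusted p = 0.014) and had 0.19 ± 0.09 in KO, which did not pass (adjusted p = 0.13) unless the line was a block (adjusted p = 0.004). The genotypes differed by 0.46 ± 0.12 (adjusted p = 0.0078). The WT call was lost with all 42 libraries, under quantile normalization and without line WT17.

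The H3K9 demethylases of the KDM4 family split. Kdm4c was at 8.72, 8.43 and 8.58 with DMSO and at 9.05, 9.18 and 9.05 with RA in WT, and at 8.69, 8.45 and 8.58 and at 8.65, 8.53 and 8.55 in KO. The WT groups were apart and the KO groups overlapped. Kdm4c rose 1.43-fold in WT (0.51 ± 0.10, adjusted p = 0.00019), had 0.00 ± 0.10 in KO (adjusted p = 0.99), and differed between the genotypes by -0.51 ± 0.15 (adjusted p = 0.012). Kdm4b was at 10.19, 10.01 and 10.19 with DMSO and at 9.68, 9.56 and 9.64 with RA in WT and fell by 0.50 (SE 0.09, adjusted p = 5.9e-05). In KO its change was -0.22 ± 0.09 (adjusted p = 0.089), and the difference of 0.28 ± 0.13 did not pass (adjusted p = 0.13). Kdm4a fell by 0.19 in WT (SE 0.05, adjusted p = 0.0021) with 0.05 in KO, and the genotypes differed by 0.23 ± 0.07 (adjusted p = 0.012).

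Kdm3a, an H3K9 demethylase needed for spermiogenesis, was at 13.08, 12.89 and 13.18 with DMSO and at 12.68, 12.59 and 12.69 with RA in WT and fell by 0.40 (SE 0.07, adjusted p = 8.5e-05). Kdm3a was also the one member that moved with DMSO alone in WT. It was at 12.53, 12.72 and 12.71 in the untreated lines, 0.40 ± 0.07 below DMSO at 24 h (adjusted p = 0.037), where 0.0861% of all genes were called, and the RA libraries at 24 h lay within the range of the untreated ones. With all 42 libraries that change with DMSO lost its call (adjusted p = 0.25), and no member was called without line WT17, WT25 or KO20. With the line as a block 4 members and 3.9% of all genes were called.

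The H3K4 demethylases differed in direction. Kdm5a rose by 0.17 in WT (SE 0.05, adjusted p = 0.0043) with -0.07 in KO, a difference of -0.24 ± 0.07 (adjusted p = 0.0092). Kdm5b fell in both genotypes, by 0.16 and 0.22 (SE 0.05 in each, adjusted p = 0.0046 and 0.00076). Its WT call was lost with all 42 libraries and under quantile normalization, while that in KO held in every alternative fit. Kdm1a, the H3K4 demethylase LSD1, and Kdm2b, whose protein brings variant PRC1 to CpG islands, did not pass, at 0.06 ± 0.04 and -0.18 ± 0.12 in WT and at -0.02 ± 0.04 and 0.26 ± 0.12 in KO.

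Of the 5 H3K9 methyltransferases, 1 rose and 2 fell in WT, and none passed in KO. Suv39h2, which makes H3K9me3 and is expressed mainly in testis in adult mice, was at 10.89, 10.90 and 10.97 with DMSO and at 11.08, 11.06 and 11.18 with RA in WT, without overlap. It rose by 0.19 (SE 0.07, adjusted p = 0.029), had -0.09 ± 0.07 in KO (adjusted p = 0.39), and differed between genotypes by -0.28 ± 0.10 (adjusted p = 0.038), a call lost in 9 alternative fits, while its rise in WT was lost in 6. Its exons share 8.1% of their length with Dclre1c on the opposite strand.

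Suv39h1, its paralog, fell by 0.13 in WT (SE 0.04, adjusted p = 0.016) and had -0.11 ± 0.04 in KO (adjusted p = 0.065). The WT call was lost in 4 alternative fits, quantile normalization among them. Of the exon length of Suv39h1, 14.6% lies opposite an annotated antisense gene. Setdb1, which represses retroelements in germ cells, fell by 0.08 in WT (SE 0.03, adjusted p = 0.017), a direction that turned under quantile normalization (0.01, adjusted p = 0.71). Ehmt1 and Ehmt2, partners that make H3K9me2, did not pass at 24 h, with 0.11 and 0.07 in WT and 0.02 and 0.04 in KO.

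Among the 7 methyltransferases of H3K4 and H3K79, 6 fell in WT and none rose, and in KO 2 fell and 1 rose. All genes stood at 19.3% lower in WT and 8.1% lower in KO. The WT calls of Kmt2a, Kmt2d, Setd1a and Dot1l were lost under quantile normalization and also with all 42 libraries. That of Kmt2c was lost with all 42 libraries, and that of Setd1b held in every alternative fit. Setd1b, an H3K4 methyltransferase of the COMPASS family (ENSMUSG00000038384.16, chr5:123142193-123168629 on GRCm38.p4), was at 10.04, 10.20 and 9.94 with DMSO and at 9.35, 9.59 and 9.32 with RA in WT. In KO it was at 10.08, 9.96 and 10.29 and at 10, 9.94 and 10.22. RA lay below DMSO in every WT line and the KO groups overlapped. Setd1b fell by 0.64 in WT (SE 0.09, adjusted p = 1.1e-06), 1.55-fold and the largest change of any member there, had -0.06 ± 0.09 in KO (adjusted p = 0.70), and differed between genotypes by 0.58 ± 0.12 (adjusted p = 0.0011).

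Kmt2c, an enhancer H3K4 monomethyltransferase, moved in opposite directions. It was at 13.36, 13.27 and 13.58 with DMSO and at 13.01, 13.01 and 13.22 with RA in WT, and at 13.45, 13.56 and 13.19 and at 13.62, 13.73 and 13.55 in KO. RA was lower in every WT line and higher in every KO line, although the KO groups overlapped. Kmt2c fell by 0.32 in WT (SE 0.08, adjusted p = 0.0025), rose by 0.23 in KO (SE 0.08, adjusted p = 0.042), a call lost in 9 alternative fits, and differed between genotypes by 0.55 ± 0.11 (adjusted p = 0.00087).

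Its paralog Kmt2d fell by 0.27 in WT (SE 0.07, adjusted p = 0.0023), with -0.12 ± 0.07 in KO (adjusted p = 0.25). Kmt2a, needed for Hox gene activity, fell in both, by 0.17 (SE 0.05, adjusted p = 0.0051) and by 0.23 (SE 0.05, adjusted p = 0.00062). Setd1a fell by 0.10 (SE 0.04, adjusted p = 0.038) and by 0.14 (SE 0.04, adjusted p = 0.011), calls lost in 9 and 5 alternative fits with quantile normalization among them for both, and 51.8% of its exon length lies in a second annotated gene on the same strand that is listed with a mean signal of 0. Dot1l, the H3K79 methyltransferase, fell by 0.12 in WT (SE 0.05, adjusted p = 0.038), a call lost in 10 alternative fits. Kmt2b, which methylates bivalent promoters and is needed in oocytes, did not pass, at -0.05 ± 0.05 and -0.02 ± 0.05.

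**Figure D3:**
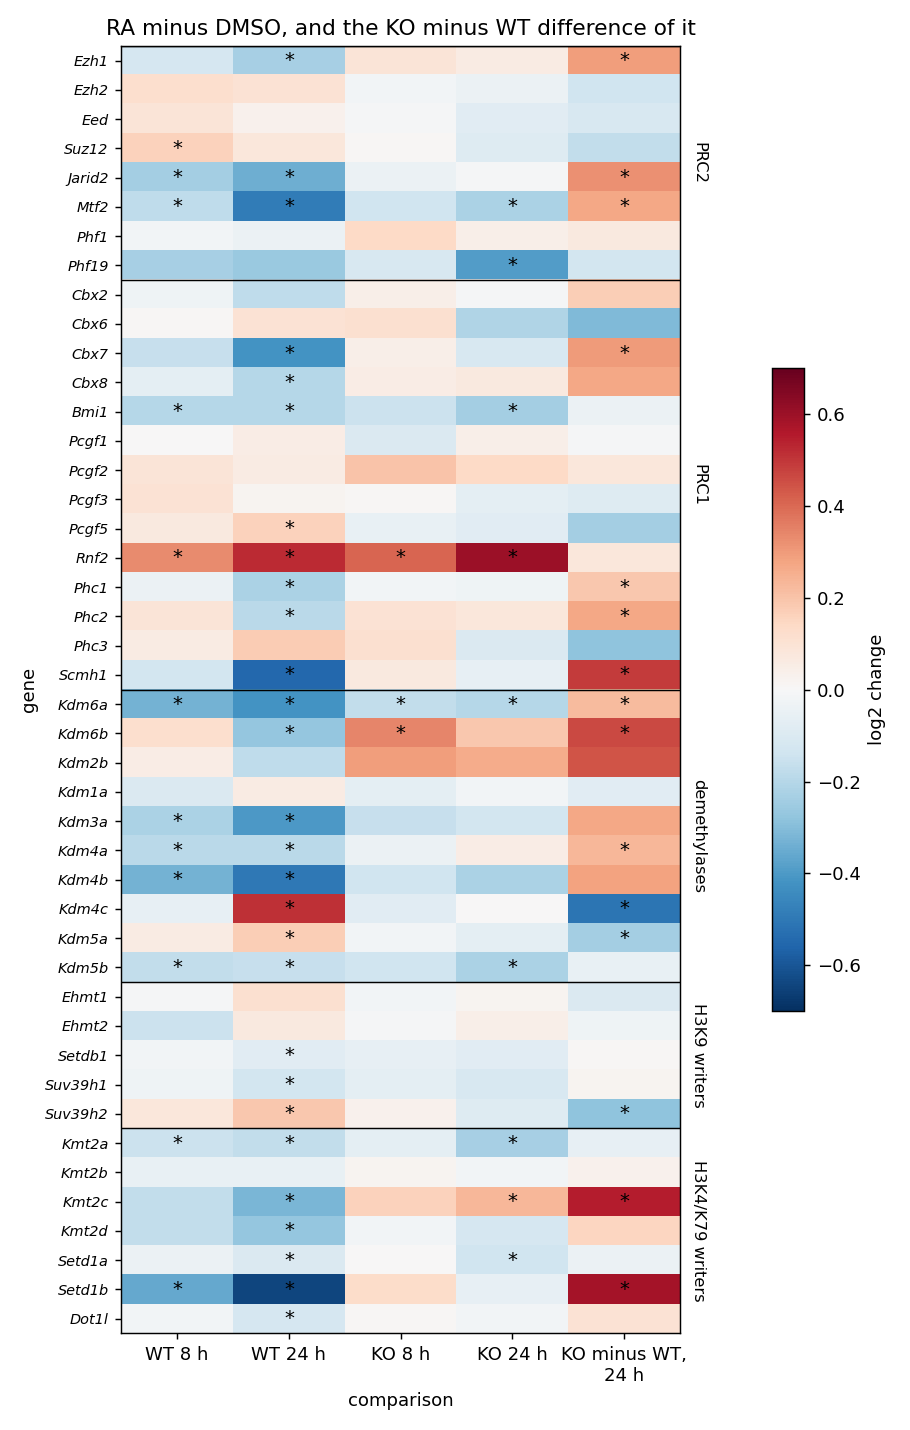
Log2 change of the 44 members (rows, ordered by role) for RA minus DMSO at 8 and 24 h in WT and KO and for the KO minus WT difference of that effect at 24 h, with blue lower and red higher and asterisks at adjusted p below 0.05. The WT 24 h column holds 28 asterisks and the KO 24 h column 9, and Rnf2 is red in all 4 columns of RA effects.

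At 8 h fewer members had moved. In WT, 2 of 44 rose and 10 fell, where 12% of all genes were called, 5.32% higher and 6.71% lower. All 10 that fell at 8 h were also lower at 24 h, namely Bmi1, Jarid2, Kdm3a, Kdm4a, Kdm4b, Kdm5b, Kdm6a, Kmt2a, Mtf2 and Setd1b. The same share over all genes is not given here. The overlap therefore cannot be read as particular to the members. Setd1b was at 10.55, 10.43 and 10.51 with DMSO and at 10.23, 10.06 and 10.13 with RA and fell by 0.36 (SE 0.09, adjusted p = 0.0057). Kdm6a was at 10.40, 10.36 and 10.42 and at 10.11, 9.96 and 10.11 and fell by 0.33 (SE 0.05, adjusted p = 2e-05). In both genes the groups were apart. Rnf2 rose by 0.33 (SE 0.05, adjusted p = 7.2e-05), and Suz12 rose by 0.16 (SE 0.05, adjusted p = 0.04), a call lost in 11 alternative fits. Kdm4b, Jarid2, Kdm3a, Bmi1 and Kdm4a fell by 0.33, 0.24, 0.22, 0.20 and 0.19. Of the falls at 8 h, that of Kmt2a was lost in 10 alternative fits and that of Kdm3a in 8. Bmi1 and Mtf2 lost theirs in 5 each, and Jarid2, Kdm4a and Kdm4b in 4 each. Kdm5b lost its call in 3, Setd1b in 2 and Kdm6a in 1, while the rise of Rnf2 held in all.

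In KO at 8 h, 2 members rose and 1 fell, where 6.56% of all genes were called, 5.3% higher and 1.26% lower. Rnf2 went from 11.44, 11.37 and 11.36 with DMSO to 11.82, 11.73 and 11.84 with RA (0.41 ± 0.05, adjusted p = 2.1e-06). Kdm6b went from 12.82, 12.96 and 12.87 to 13.07, 13.38 and 13.20 (0.34 ± 0.09, adjusted p = 0.013). The RA libraries of both genes lay above all DMSO libraries. Kdm6a, the member called lower, fell by 0.17 (SE 0.05, adjusted p = 0.032), a call lost in 7 alternative fits and without any one KO line. No member passed the test of the difference between the genotypes at 8 h (limma), where 0.455% of all genes were called; 9 members had an unadjusted p below 0.05, and Setd1b came nearest with 0.49 ± 0.12 (adjusted p = 0.079). With the line as a block 20 members were called in WT and 8 in KO, and 3 (Ezh1, Jarid2 and Setd1b) for the difference, where 21.2%, 12% and 3.81% of all genes were called. With all 42 libraries the counts were 1, 1 and 0, where 5.12%, 3.21% and 0.00614% of all genes were called. Quantile normalization left 2 higher and 3 lower in KO (6.69% of all genes called). Without line WT23 4 members were called in WT, without WT25 3 and without WT17 6. In KO the count was 1 without line KO20 or KO21 and 5 without WT17. These counts too have no share of all genes beside them.

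At 4 h WT has a single undoubted DMSO library, so RA at 4 h was set against the mean of untreated and DMSO at 8 h of the same genotype, called the bracket. Against it, 7 members were higher and 5 lower in WT, where 20.3% of all genes were called, 11.5% higher and 8.8% lower. In KO 7 were higher and 2 lower, where 15.7% were called, 9.48% higher and 6.25% lower. Kdm6b was at 13.59, 13.23 and 13.58 with RA in WT and at 13.33, 13.58 and 13.48 in KO, 0.67 ± 0.08 above the bracket in each (adjusted p = 1.4e-07 and 1.1e-07). But Kdm6b with DMSO at 4 h was itself high, at 13.29 in WT17 and at 13.07 and 13.08 in KO12 and KO21, which is 0.48, 0.37 and 0.28 above the bracket of the same line. Phc2, 0.33 ± 0.05 above the bracket with RA in each genotype, was with DMSO 0.28, 0.30 and 0.23 above it in those 3 lines. Phc1 showed the same, with 0.10 and 0.15 in RA and 0.16, 0.15 and 0.18 in DMSO.

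A pair of comparisons chosen after seeing the data addressed this. DMSO at 4 h against the bracket called Phc1 and Phc2 in KO (0.16 ± 0.04 and 0.26 ± 0.06, adjusted p = 0.025 and 0.015; 2.33% of all genes called) and no member in WT, where 1 library stood for DMSO and 0.344% of all genes were called. RA at 4 h against that single WT17 library, with the spread pooled over all groups and so assumed for it, called Rnf2 alone (0.29 ± 0.08, adjusted p = 0.049; 1.41% of all genes called).

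In KO 2 DMSO libraries at 4 h remain, and the direct comparison called 2 members, both higher, where 2.76% of all genes were called and 2.56% were higher. Rnf2 was at 11.48 and 11.34 with DMSO and at 11.75, 11.65 and 11.54 with RA (0.24 ± 0.06, adjusted p = 0.026). Kdm6b was at 13.07 and 13.08 with DMSO and at 13.33, 13.58 and 13.48 with RA (0.38 ± 0.10, adjusted p = 0.021). In both genes the groups were apart, and both calls were lost when the doubtful KO20 library was put back and when any one KO line was left out. In WT the RA library of line WT17 lay 0.17 above its DMSO library for Rnf2 and 0.30 for Kdm6b, a single pair with no test. Rnf2 with RA at 4 h in WT was at 11.58, 11.77 and 11.75, above 11.41 in the WT17 DMSO library.

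Other members away from the bracket at 4 h were Suz12, Kdm5a and Pcgf3, higher in WT by 0.17, 0.15 and 0.11, and Kdm4b, Cbx2, Kdm4a, Kdm6a and Ehmt2, lower by 0.29, 0.26, 0.23, 0.15 and 0.14. In KO Phf1, Pcgf2 and Dot1l were higher by 0.27, 0.27 and 0.12, and Cbx2 and Kdm4a lower by 0.21 and 0.17. DMSO at 4 h was off the bracket for several of these too. In WT17, DMSO lay 0.12 above it for Suz12, 0.10 for Kdm5a and 0.07 for Pcgf3, and RA minus DMSO at 4 h was 0.02, -0.02 and 0.09. For Kdm4b, Kdm4a, Kdm6a and Ehmt2 in WT17, RA minus DMSO was -0.16, -0.18, -0.25 and -0.04. In KO12 and KO21, DMSO differed from the bracket by 0.17 and 0.12 for Phf1, 0.08 and 0.04 for Pcgf2, 0.14 and 0.05 for Dot1l and -0.07 and -0.19 for Kdm4a. Cbx2 with DMSO lay 0.05 above the bracket in WT17 and 0.17 and 0.20 below it in KO12 and KO21. A distance from the bracket is therefore not an RA effect by itself. The split into higher and lower moved with the scaling, to 3 and 7 under quantile normalization and 9 and 3 under median centring in WT, and to 5 and 5 under quantile normalization in KO (18.1%, 21.8% and 14.4% of all genes called). The line as a block called 16 members in KO, where 26.9% of all genes were called. With all 42 libraries 5 members were called in WT and 4 in KO, where 9.41% and 7.46% of all genes were called, and without line KO21 5 in KO. No member passed for a difference between genotypes at 4 h (limma; 1 with an unadjusted p below 0.05; 0.0123% of all genes called).

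**Figure D4:**
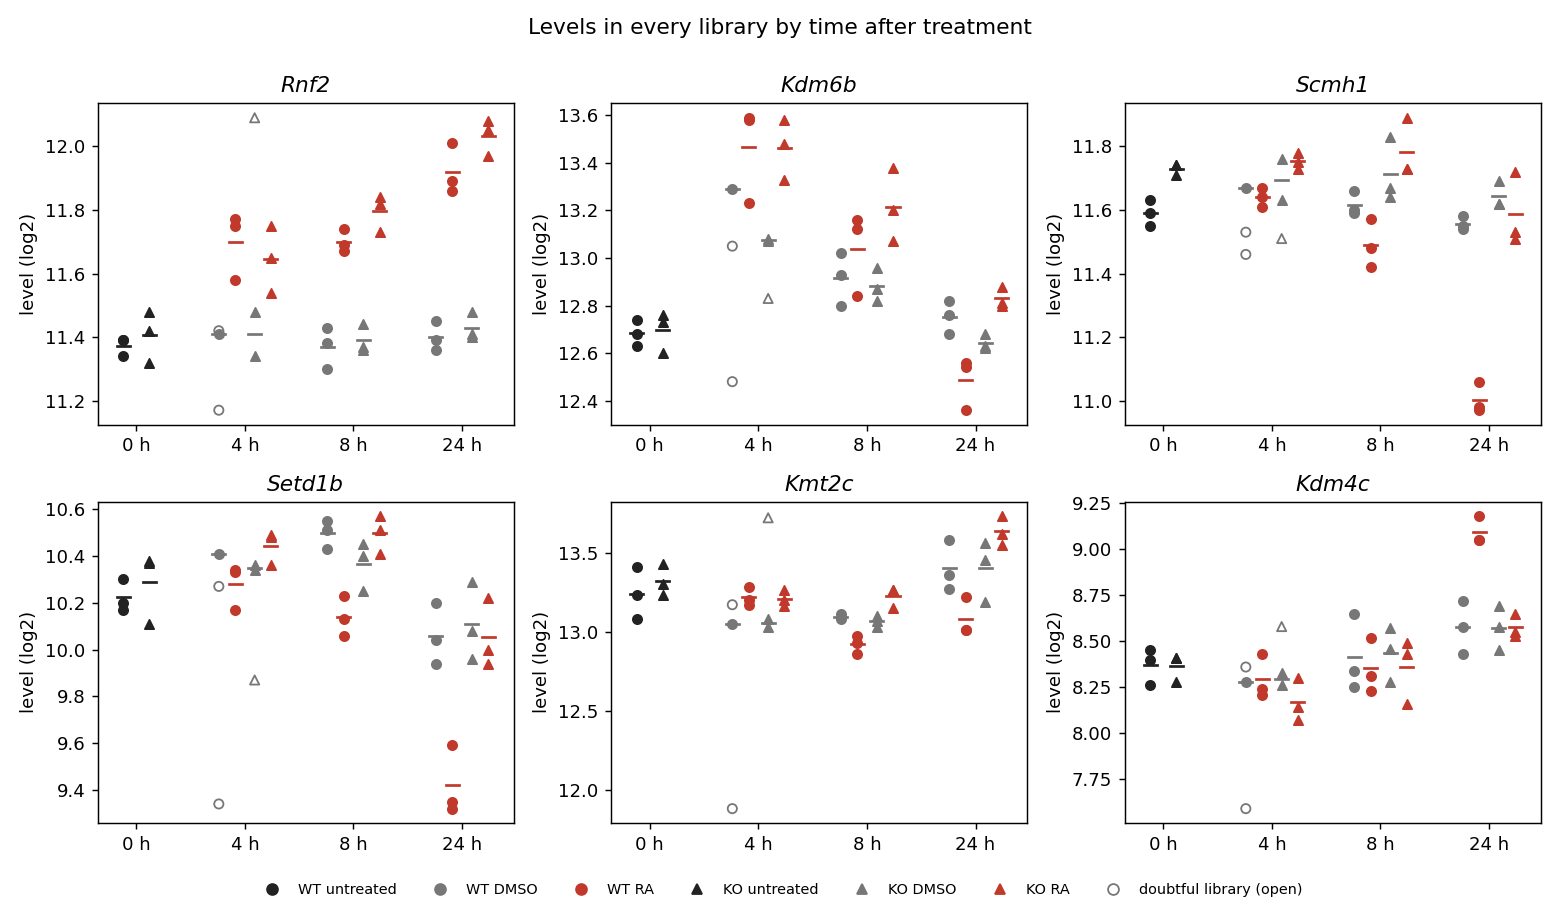
Deposited log2 level of 6 members in every library against hours of treatment, with symbols as for the PRC2 genes. Apart from the doubtful libraries, Rnf2 with RA lies above DMSO in both genotypes at each time, Kdm6b peaks at 4 h with DMSO as well as RA, and Scmh1 and Setd1b fall and Kdm4c rises at 24 h with RA in WT. The open triangle of Rnf2 at 4 h, at 12.09, is the doubtful KO20 DMSO library.

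Before RA the genotypes did not differ in any member by the test. Untreated KO against untreated WT called none of the 44 (limma; 5 had an unadjusted p below 0.05; 0.0123% of all genes called), and the widest differences were Kdm2b at 0.31 ± 0.12 (adjusted p = 0.72), Phf19 at 0.18 ± 0.12 (adjusted p = 0.91) and Phc2 at 0.17 ± 0.06 (adjusted p = 0.63). Without line KO21 1 member was called. DMSO at 24 h against untreated called none in KO (limma; 8 with an unadjusted p below 0.05), where 0% of all genes were called.

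With RA at 24 h, KO and WT differed in 23 members, 13 higher and 10 lower in KO, where 39.2% of all genes were called, 21.4% higher and 17.8% lower. With all 42 libraries 17 members were called, where 25.6% of all genes were. Higher in KO were, by size, Kdm2b (0.65), Setd1b (0.63), Scmh1 (0.58), Kmt2c (0.55), Kdm6b (0.35), Jarid2 (0.34), Ezh1, Kdm4a, Mtf2, Phc2, Cbx7, Kdm6a and Phc1. Lower were Kdm4c (-0.51), Cbx6 (-0.33), Pcgf5 (-0.33), Phc3 (-0.27), Suv39h2 (-0.25), Kdm5a, Bmi1, Suz12, Eed and Kdm5b. Kdm2b was at 11.36, 11.33 and 11.41 with RA in WT and at 12.03, 12.11 and 11.92 in KO, groups that did not overlap (adjusted p = 0.00014). Untreated, Kdm2b was at 11.36, 11.46 and 11.57 in WT and at 11.86, 11.93 and 11.54 in KO12, KO20 and KO21. Lines KO12 and KO20 thus lay above the WT lines before RA, and KO21 did not. Exons of Kdm2b share 5.77% of their length with Rnf34 on the opposite strand, which had a mean signal of 1890 beside 3230 for Kdm2b. All differences in this comparison include any that were present before RA. The PRC2 core genes Eed and Suz12 were each 0.17 lower in KO (adjusted p = 0.0031 and 0.0077), and 10.6% of the exon length of Eed lies opposite an annotated antisense gene. Eed was at 11.78, 11.82 and 11.82 in WT and at 11.64, 11.65 and 11.62 in KO. This comparison shares its RA libraries with the RA effects above, so its values are not further support for them.

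Levels between members were compared per kilobase of exon on the authors' mean signal over all libraries. Pcgf5 (1690), Eed (1510), Ehmt2 (1390) and Mtf2 (1240) were the highest and Phc3 (61.4), Kdm4c (62.1), Setd1b (102) and Phf19 (129) the lowest of the 44 in mean signal per kilobase. Ezh1 and Ezh2 had 502 and 333.

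Other genes of the same or related pathways were counted at 24 h in lists that exclude the members. All genes stood at 37.2% called in WT and 18.6% in KO. Of 29 other Polycomb genes 7 rose and 4 fell in WT (37.9%) and 2 rose and 3 fell in KO (17.2%), with the largest changes in WT in Scml4 (-1.14 ± 0.24), Bcor (-0.64 ± 0.15), Asxl3 (0.64 ± 0.20) and Lcor (0.34 ± 0.06). Of 25 other genes of the SET-domain family, 8 rose and 6 fell in WT (56%) and 2 rose and 6 fell in KO (32%). This family holds histone lysine methyltransferases, but Setd3 is not established as one. Prdm9, which marks meiotic recombination hotspots with H3K4me3, rose by 0.74 in WT (SE 0.11, adjusted p = 4.3e-06), beside Setd3 (-0.42), Smyd2 (-0.41) and Prdm16 (-0.40). Of 15 other demethylases 2 rose and 4 fell in WT (40%) and 2 rose and 2 fell in KO (26.7%). Hr, an H3K9 demethylase of skin and hair, rose in both, by 1.08 and 1.48 (SE 0.17 in each).

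Of 31 tested chromatin cofactors, 8 rose and 7 fell in WT (48.4%) and 3 rose and 4 fell in KO (22.6%). This list holds partners of COMPASS, of H3K9 methylation, of LSD1 and of DOT1L, and the acetyl-lysine readers Brd2 and Brd3. Rcor1, a CoREST subunit that works with LSD1, rose in both, by 0.45 and 0.84 (SE 0.06 in each), and Phf21a, the reader of unmethylated H3K4 in the same complex, fell by 0.60 in WT (SE 0.05) and by 0.13 in KO (SE 0.05). Rcor3 rose by 0.57 (SE 0.13) and Brd2 fell by 0.40 (SE 0.04) in WT. Of 29 G1/S genes 2 rose and 10 fell in WT (41.4%) and 2 rose and 4 fell in KO (20.7%), near the shares of all genes, and of 20 G2/M genes 1 rose in WT and 1 fell in KO (5% in each). Ccnd2, a G1 cyclin of differentiating spermatogonia, fell by 0.70 in WT (SE 0.07), and Ccnd1 fell by 0.53 and 0.31 (SE 0.11 in each).

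Markers of other cells were set beside these results. The summed level of 17 feeder fibroblast markers was 15.45 to 16.09 with DMSO and 15.33 to 15.92 with RA at 24 h in WT, which overlap, and 15.81 to 16.24 and 15.44 to 15.64 in KO, which do not. The part of fewer feeder reads in the KO changes was not tested. Markers with a mean level under log2 of 10 over the 39 libraries were 3 of 13 of Sertoli cells (Amh, Gata1 and Fshr), 4 of 6 of Leydig cells (Cyp17a1, Hsd3b1, Insl3 and Lhcgr), 2 of 7 of macrophages (Csf1r and Adgre1), 1 of 7 of endothelial cells (Tie1) and 3 of 7 of spermatocytes and spermatids (Prm1, Acrv1 and Acr). Summed macrophage markers were at 8.61 to 9.02 with DMSO and 7.57 to 7.84 with RA in WT, and at 8.61 to 10.90 and 8.38 to 10.67 in KO. Summed endothelial markers were at 8.98 to 9.37 and 8.64 to 8.83 in WT and at 9.03 to 9.35 and 9.61 to 9.85 in KO, so both sums were lower with RA in WT and the endothelial sum was higher in KO. Summed spermatocyte and spermatid markers were at 12.55 to 12.87 and 12.86 to 13.14 in WT and at 12.59 to 12.70 and 12.46 to 12.81 in KO. Sertoli sums lay between 9.46 and 10.11 and Leydig sums between 6.50 and 7.79 over these 4 groups. Differentiating spermatogonia markers, Kit and Stra8 among them, were at 15.02 to 15.10 and 15.69 to 16.00 in WT and at 15.01 to 15.18 and 15.60 to 15.62 in KO. The part of these cells in the members' changes was not tested.

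The authors' deposited table of comparisons, at an adjusted p below 0.05, had 5 members higher and 23 lower for RA at 24 h in WT, 2 and 8 in KO, 2 and 11 at 8 h in WT and 2 and 1 at 8 h in KO. For the interaction of genotype and treatment, in which that table's sign runs opposite to the one used here, it had 3 higher and 13 lower at 24 h and 0 and 2 at 8 h.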

How the data were processed

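Polyadenylated RNA was sequenced with a stranded kit, after extraction on a single day and a quality threshold of 9.2 on the RNA integrity scale, per the labels' protocols. Per the submitters' processing notes, STAR 2.5.1b, DESeq and GRCm38.p4 were used, in roles and an order that are not stated there. Which program counted reads, and with which strand setting, is not given in the sources used here. The deposited values are on a log2 scale, already scaled between libraries by the authors, per the file headers and the values. The deposited mean signal per gene was divided by exon length in kilobases. The authors' deposited fold changes and adjusted p-values, per the file headers, were used only where they are named. The depth of the libraries is unknown, so no counting interval is given, and log2 values of this kind can understate changes of low genes. The labels list 43 samples, of which 2 describe line WT17 at 24 h of RA where 1 column exists, so 42 libraries were available.

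The members and lists were chosen with earlier results of these data known. Genes with a value of log2 of 10 or more in 3 or more libraries were tested. Group means were fitted with limma 3.58.1 in R 4.3.3 (trend and robust options) over 39 libraries of 14 groups, with Benjamini-Hochberg adjustment over 16268 genes and a threshold of 0.05. Members were named with values if they passed at 24 h, or (up to 5 a direction) in other comparisons, or belonged to a fixed set of core subunits and enzymes, and other lists gave up to 4 genes each. The remaining members are given by value. Libraries pair by line name: deviations of RA and DMSO libraries of a line at 24 h correlated over genes at 0.31, 0 and 0.32 in WT and at 0.67, 0.49 and 0.62 in KO. Alternatives were the line as a block, all 42 libraries, quantile normalization, median centring, other filters, no trend or robust option, each comparison's own groups alone, and each line left out. Promoters were taken from RefSeq on GRCm38.p6.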

Additional observations from a re-analysis of the deposited data

Results flagged for a closer look

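The RA effect at 24 h differed between WT and KO, by the test of the difference itself (limma, Benjamini-Hochberg adjusted), in 15 members. It was higher in KO for Setd1b (0.58, adjusted p = 0.0011), Kmt2c (0.55, adjusted p = 0.00087), Scmh1 (0.49, adjusted p = 1.2e-05), Kdm6b (0.46, adjusted p = 0.0078), Jarid2 (0.32, adjusted p = 0.0089), Cbx7 (0.30, adjusted p = 0.018), Ezh1 (0.29, adjusted p = 0.0063), Mtf2 (0.27, adjusted p = 0.0074), Phc2 (0.27, adjusted p = 0.023), Kdm4a (0.23, adjusted p = 0.012), Kdm6a (0.22, adjusted p = 0.027) and Phc1 (0.19, adjusted p = 0.017). It was lower in KO for Kdm4c (-0.51, adjusted p = 0.012), Suv39h2 (-0.28, adjusted p = 0.038) and Kdm5a (-0.24, adjusted p = 0.0092). These are differences of log2 changes with 3 lines in each group, and 19.8% of all genes tested passed the same test. Only Scmh1 held in every alternative fit, and all other calls were lost with all 42 libraries. Kdm6a and Suv39h2 lost theirs in 9 alternative fits, Phc1 and Phc2 in 6, Cbx7 and Kdm4a in 4 and Kdm4c in 3. Ezh1, Jarid2, Kdm5a, Kdm6b and Mtf2 lost theirs in 2, and Kmt2c and Setd1b in 1.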

How the results depend on the processing

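Counts are of members called. No share of all genes is given for fits of a comparison's own groups, without the trend and robust options, or with a line left out. Changes in those counts cannot be read as particular to the members. With all 42 libraries they were 14 for RA at 24 h in WT, 4 in KO and 1 for the difference between genotypes, 1 and 1 at 8 h, 5 and 4 at 4 h against the bracket, 0 for KO at 4 h directly and 0 for DMSO in WT. With the line as a replicate block they were 14 for KO at 24 h, 20 and 8 at 8 h in WT and KO, 3 for the difference at 8 h, 16 for KO at 4 h against the bracket and 4 for DMSO in WT. Fits of a comparison's own groups gave 6 for WT at 8 h, 1 for KO at 4 h and 0 for DMSO in WT. Quantile normalization gave 5 for KO at 8 h and turned Setdb1 in WT at 24 h to 0.01 (adjusted p = 0.71), median centring gave 1 for KO at 4 h, and leaving out the trend and robust options gave 0 for DMSO in WT. Against the WT17 DMSO library alone, chosen after seeing the data, 1 was called at 4 h in WT. The cause of these moves was not tested. With each line left out in turn, counts at 24 h were 21 to 27 in WT, 5 to 10 in KO and 6 to 13 for the difference. At 8 h they were 3 to 12 in WT and 1 to 5 in KO, and at 4 h against the bracket 8 to 12 and 5 to 11. KO at 4 h directly gave 0 to 2, KO against WT 0 to 1 untreated and 20 to 24 with RA, and DMSO in WT 0 to 1. No other count of calls moved by over 1.5 times under the block. Depth is unknown, so no limit from counting can be given.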
